A study of Oryza sativa with 12 samples.

Results

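Arsenate-treated rice roots were compared with control roots over 2 varieties at once, as the mean of the arsenate effect in Azucena and the arsenate effect in Bala. All 12 arrays of the series entered this comparison, 6 with arsenate and 6 without. A gene was described here when it passed the test of the mean effect and its signal moved one way in both varieties in each of 3 independent experiments, that is in all 6 pairs of an arsenate and a control array. Of 15638 genes tested, 4222 met both conditions, and 2469 of these were higher and 1753 lower with arsenate. Of the 4222, 1192 passed the test only in the mean and in neither variety alone. Their changes were moderate, with a median of 1.47-fold.

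The groups were Azucena with arsenate, Bala with arsenate, Azucena control and Bala control, with 3 arrays each. Plants stood in hydroponic culture for 7 days, with arsenate at 1 ppm (13.3 uM) or at 0 ppm in the controls. Each array carried labelled RNA pooled from the roots of 4 plants of one pot, so plant-to-plant spread was not measured. Each experiment gave 1 array to each group and was grown at another time. Only 1 arsenate level and 1 harvest time were examined. The arrays were Affymetrix Rice Genome arrays, on which a probe set reports 1 transcript or several similar ones. The 7 genes taken as markers of root tissue all had a mean above the signal filter of 9.4 in every group. They were taken only from genes whose mean over all arrays passed this filter, so the result was largely set beforehand. Of 15 photosynthesis genes, which mark green tissue, 0 had a mean below the filter in Azucena controls and 1 in Bala controls. These genes were taken in the same way, so their counts too were partly set beforehand.

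Arsenate is a chemical analogue of phosphate and enters root cells through phosphate transporters. Inside the cell it is reduced to arsenite, which binds thiol groups and is held by glutathione and by phytochelatins made from it, while silicon channels and exporters of rice also carry arsenite. Damage to proteins by such metalloids is known to call up heat shock proteins and their transcription factors.

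In the mean of both varieties, 5363 genes (34.3% of those tested) passed the test, and 3116 (19.9%) of the tested genes were higher and 2247 (14.4%) lower with arsenate. The test was limma's moderated test with the experiment as a block, with p values adjusted by Benjamini and Hochberg's method over 28461 probe sets and a threshold of 0.05. With 1 sign in all 6 pairs, 27% of the tested genes passed, 15.8% higher and 11.2% lower. The median change of all genes was 0.11 on the log2 scale (0.14 in Azucena and 0.08 in Bala). Over the 28461 probe sets the shares were 31.7% in the mean, 24.3% with 1 sign as well, 6.73% with 1 sign and in the mean only, and 0.0914% in the test of the variety difference. Across the 15638 genes the changes of the varieties, which share no control array but share the experiments, correlated with r = 0.742, given here as a description. RNA was taken from roots in bulk, so that fewer cells of a type and less RNA per cell cannot be told apart.

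The 4222 genes fell into 4 classes by which single-variety tests they also passed. Both varieties passed for 1391, Azucena but not Bala for 1286, Bala but not Azucena for 353, and neither for 1192. The median size of the mean change was 1.53 log2 units in the first class, 0.80 in the second, 0.83 in the third and 0.56 in the last. Of all genes tested, 22.7% passed in Azucena and 12.7% in Bala. Passing in one variety and not in the other does not show that the varieties differ, and of all genes tested 11 (0.0703%) passed the test of the difference. The median mean signal was 239 for genes called only in the mean, against 188 for all genes tested.

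**Figure D1:**
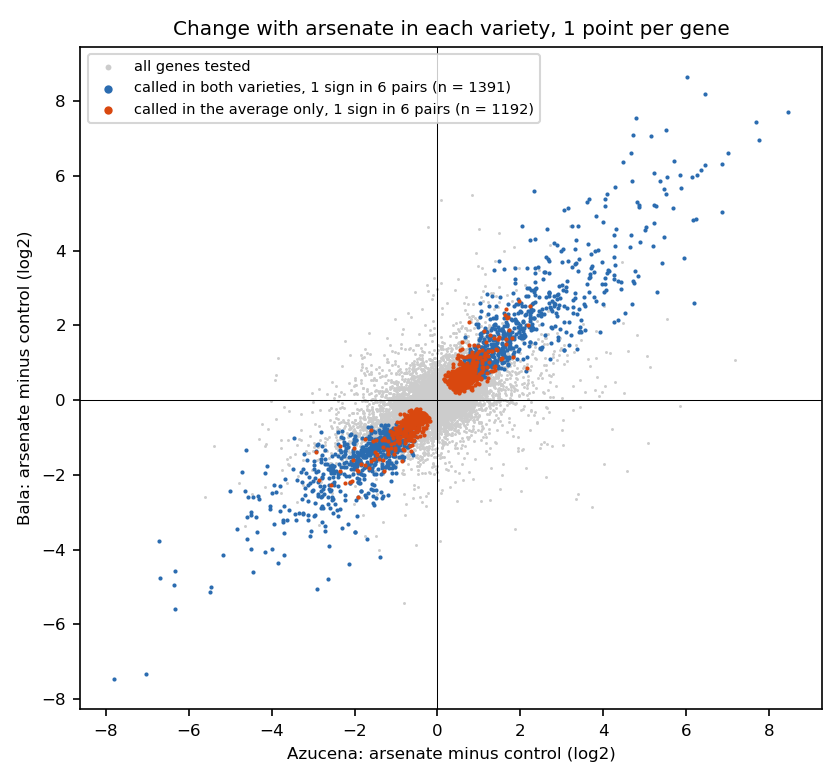
Change with arsenate in Azucena (x axis) against Bala (y axis), in log2 units, 1 point per gene (15638 genes, grey). Genes called in both varieties (blue, n = 1391) spread along the diagonal, and the 1192 called only in the mean (orange) lie closer to it on either side of the origin, the smallest mean change being 0.32 and the largest 2.50.

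The 1192 genes called only in the mean were 7.62% of the genes tested, 782 higher (5%) and 410 lower (2.62%) with arsenate. A change under 2-fold was seen for 1081 of them and of at least 2-fold for 111. Their lowest adjusted p was 0.00752, and 511 had an unadjusted p under 0.05 in each variety alone, 654 in 1 variety and 27 in neither. The median change of the 782 higher genes was 0.72, 0.53 and 0.37 in Azucena in experiments 1, 2 and 3 and 0.62, 0.37 and 0.57 in Bala. For the 410 lower genes it was -0.68, -0.53 and -0.42 in Azucena and -0.58, -0.53 and -0.53 in Bala. Changes in experiment 1 were thus the largest in both varieties and directions by this median. With or without a passed test, 33.5% of the genes had 1 sign in all 6 pairs. A further 1010 genes had 1 sign in all 6 pairs but did not pass the test, with a median size of 0.33.

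In most alternatives a smaller share of this moderate class passed than of all genes called. Without the filter on dim probe sets, 163 of the 1192 genes (13.7%) passed in the mean, and with 1 mean difference per experiment tested against 0, 212 (17.8%) passed. Centring each array on its median left 727 (61.0%), and the class as redrawn then held 411 higher and 431 lower genes, against 782 and 410. Leaving out any 1 array left between 459 and 951 (38.5 to 79.8%). Leaving out experiment 1 or 2 left 29 or 37, and leaving out experiment 3 left 526, in fits with 8 arrays. The same 3 fits left 1615, 1679 and 3323 of the 4222 genes. At the threshold, LOC4349332 (mean change 0.53) and CLPD1 (0.60) lay just inside with an adjusted p of 0.0499, and LOC4351148 (0.79) lay just outside with 0.0501.

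**Figure D2:**
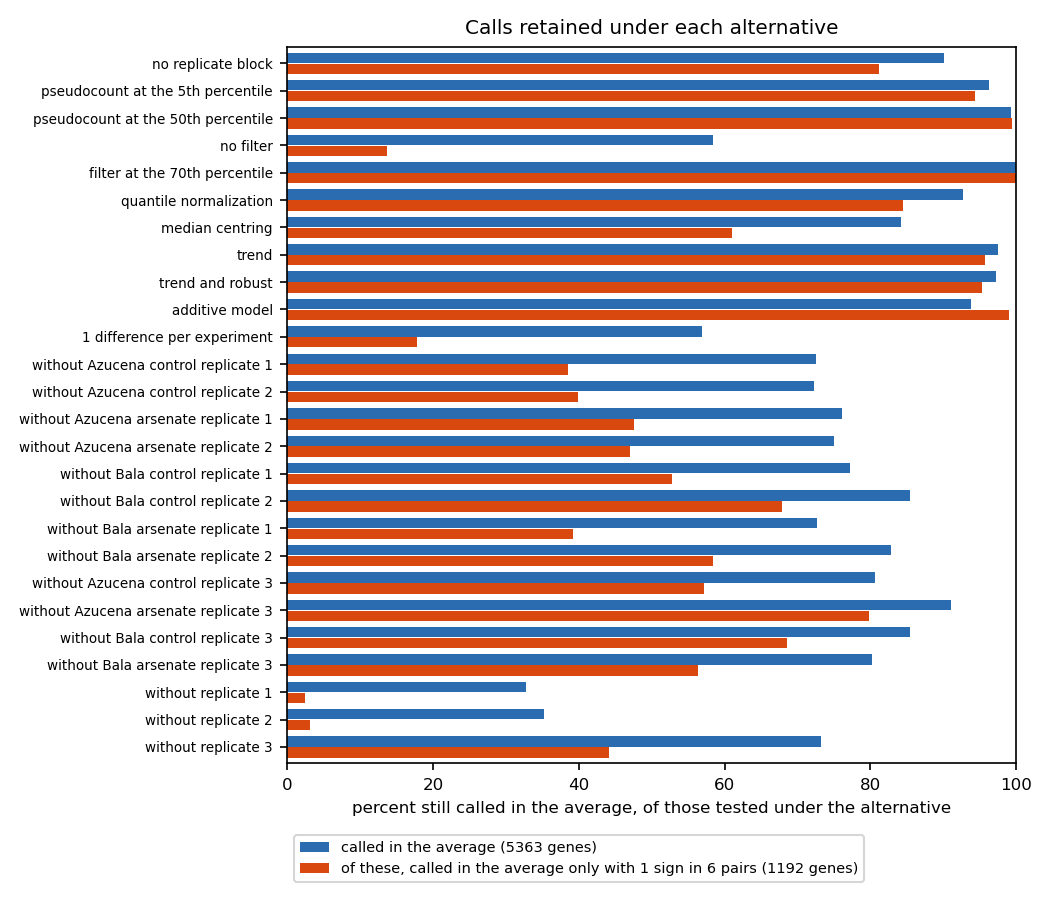
Percent of genes that still passed in the mean of both varieties (x axis) under each alternative (rows), of those tested there, for all 5363 genes called (blue bars) and for the 1192 called only in the mean with 1 sign in 6 pairs (orange). Without replicate 1 or 2 means without that experiment. The orange bars are shortest there (29 and 37 genes) and without the filter (163 genes), and full under the filter at the 70th percentile, where all 1024 tested passed.

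Counts over gene lists below are of genes that passed in the mean, whether or not all pairs had 1 sign. The shares of all genes tested that compare with them are 19.9% higher and 14.4% lower. Genes named below passed the test in the mean with 1 sign in all 6 pairs unless a sentence says otherwise. The 36 genes of this class picked by the smallest p all passed in every fit without 1 array. Each of them missed the threshold without at least 1 of the experiments, and their highest adjusted p over the alternatives run lay between 0.066 and 0.189. Genes named below that fall outside the naming rule were chosen after their values were seen. The genes of this class named below from the lists mostly lost their call in at least 1 of the 12 fits without 1 array. This was so for MRS2-F in 12, for OsC3H44 and OsCIPK08 in 11, for KIN12C, OsAGO4a, OsC3H5, OsHox16 and OsSAPK2 in 10, for CAB2R, OsC3H27, OsMTP1, OsPCNA and OsSUS1 in 9. This was so for OsC3H13, OsCslF7 and OsPIN2 in 8, for HSP82, KIN14L and OsPHR in 7, for CYCA2-1 and OsPK7 in 6, for OsCASPL4B2, OsEIL1a, OsEXLA2, OsHox13 and OsPIN5 in 5. This was so for OsGH3-2 in 4, for CBL6 and OsRFC3 in 3, for OsC3H65 in 2, for OsC3H60, OsCIN1, OsHsf-04, OsSWEET6a and OsZIP8 in 1. KIN14E, OsEXPB7, OsHsp16.6 and rcs3 passed in all 12. Their highest adjusted p over the alternatives run was 0.327. Values are MAS5 signals of the 3 experiments in order, and changes are mean log2 differences, arsenate minus control, with their SE. Whether groups overlap is given as a description of genes picked from these same values. The share of all genes whose groups do not overlap was not counted, so non-overlap adds no support to a call.

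A glutamine synthetase gene rose and a sugar transporter gene fell by more than the median of this class. OsGS1;3, a cytosolic glutamine synthetase that joins ammonium to glutamate, had signals of 60.4, 55.6 and 46.5 with arsenate against 2.8, 16.3 and 16.3 in Azucena controls, and 81.3, 66.3 and 39.9 with arsenate against 16.3, 26 and 0.4 in Bala controls. Every arsenate array lay above every control array in both varieties. The mean change was 2.38 ± 0.54 (limma adjusted p = 0.011), with 2.24 in Azucena (adjusted p = 0.0679) and 2.51 in Bala (adjusted p = 0.0669). OsSWEET2b, of the SWEET family of sugar exporters, had signals of 15.2, 9.4 and 27.6 with arsenate against 87.1, 96 and 47.6 in Azucena controls, and 8.6, 1 and 9.2 with arsenate against 48.9, 47.2 and 11.1 in Bala controls. The arsenate arrays were below the controls in each variety, but experiment 3 of Bala read 9.2 with arsenate and 11.1 without. Its mean change was -2.11 ± 0.46 (limma adjusted p = 0.00946). Some signals of both genes lay near or below the filter value, so that adding another constant than 2.1 before taking logs would alter the sizes.

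**Figure D3:**
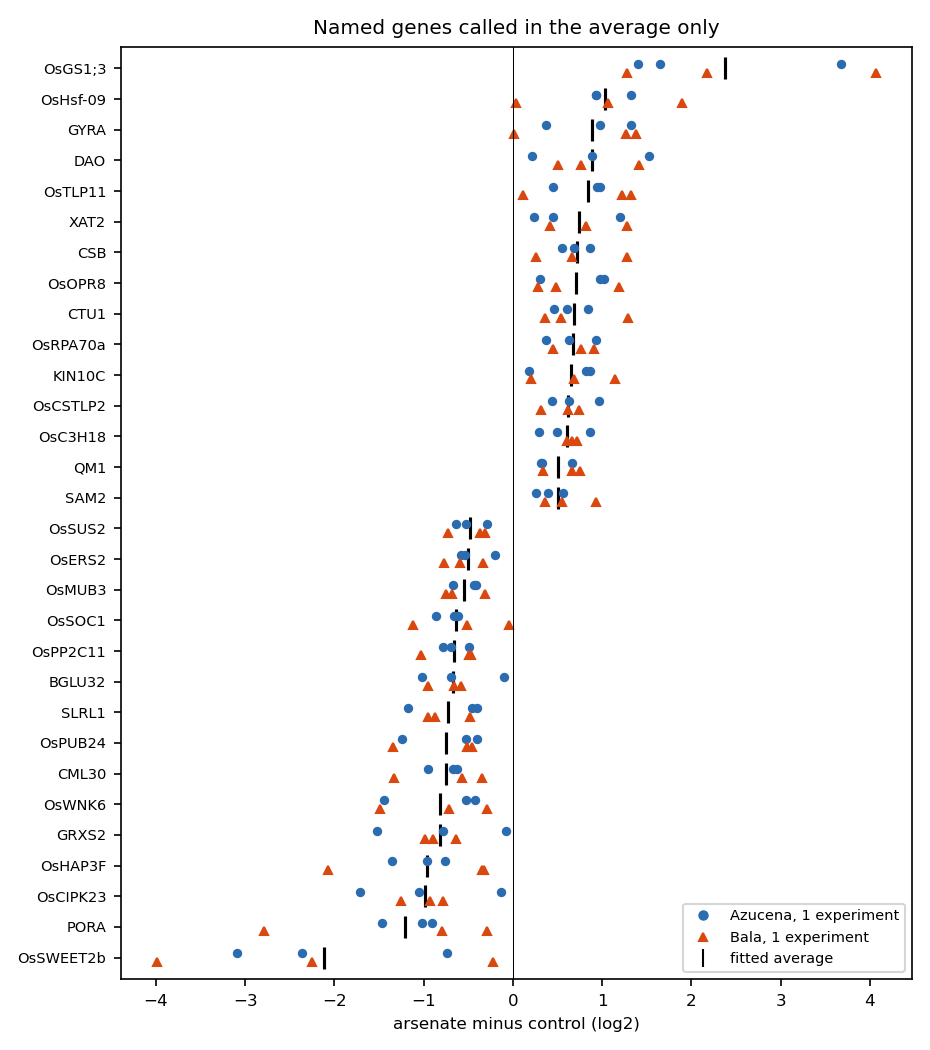
Arsenate minus control difference in log2 units (x axis) for the 30 named genes called only in the mean with the smallest p, 15 higher and 15 lower. Each row shows 3 differences of Azucena (circles), 3 of Bala (triangles) and the fitted mean (bar), and all points of a row lie on one side of 0, from OsGS1;3 at 2.38 down to OsSWEET2b at -2.11.

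Heat stress transcription factors, which bind the promoters of heat shock genes, were measured beside the chaperones. Of 20, 8 were higher (6 of them with 1 sign in all pairs) and 0 lower with arsenate (40% against 19.9% of all genes), and the median change was 0.43 against 0.11 for all genes. OsHsf-07 had signals of 46, 38.2 and 85.2 with arsenate against 7.6, 5.4 and 9.3 in Azucena controls, and 133, 154 and 66.4 with arsenate against 5.5, 12.4 and 13 in Bala controls. Arsenate and control arrays did not overlap, and the change was 2.91 ± 0.30 (limma adjusted p = 0.000269). OsHSF6 changed by 2.85 ± 0.27 and HSFA2D by 1.38 ± 0.18, and all 3 passed in each variety. OsHsf-09, on a probe set that can match several transcripts, had signals of 113, 136 and 139.5 with arsenate against 58.4, 53.1 and 71.9 in Azucena controls, and 146, 299 and 111 with arsenate against 69, 78.8 and 108 in Bala controls. Its groups did not overlap in Azucena or in Bala, although experiment 3 of Bala gave 111 with arsenate and 108 without. The change of OsHsf-09 was 1.03 ± 0.23 and passed only in the mean (limma adjusted p = 0.011), as did OsHsf-04 at 0.73 ± 0.19, whose adjusted p was 0.0533 without Azucena control array 2. The count of 8 became 6 to 9 without 1 array, 5 without the filter, and 4, 3 and 7 without experiments 1, 2 and 3.

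Of 31 small heat shock proteins and other chaperones, 18 were higher (58.1%, against 19.9% of all genes) and 2 lower (6.45%, against 14.4%) with arsenate. The median change was 1.18. The range ran from -1.51 for OsHsp18.8 to 7.56 for OsHsp18.1. OsHsp26.7, OsHsp21.9 and OsHsp18.6, small chaperones that hold unfolding proteins, changed by 6.11 ± 0.67, 6.06 ± 0.70 and 5.51 ± 0.39. CLPB1, a disaggregase of the heat shock response, changed by 3.27 ± 0.41, CLPB2 by 1.41 ± 0.17 and CLPB3 by 1.44 ± 0.25. HSP82, a form of the abundant chaperone HSP90, passed only in the mean with 0.45 ± 0.13, and so did OsHsp16.6 with 2.05 ± 0.52. Between 17 and 18 members were higher without 1 array, and 16, 14 and 15 without experiments 1, 2 and 3.

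Genes of cysteine and glutathione synthesis, which supply the thiols that hold arsenite, were higher. Of 7 measured, 5 rose (71.4%, against 19.9% of all genes) and 0 fell, with a median change of 0.60. SAT4, a serine acetyltransferase at the head of cysteine synthesis, changed by 3.70 ± 0.28 and gcs, the enzyme of the first step of glutathione synthesis, by 1.40 ± 0.12. The last step of cysteine synthesis is carried out by cysteine synthases, of which rcs1 changed by 1.19 ± 0.25 and rcs3 by 0.56 ± 0.14. The signals of rcs3 were signals of 2189, 2323 and 2678 with arsenate against 1700.1, 1652 and 1849 in Azucena controls, and 2377, 2527 and 2278 with arsenate against 1711, 1728 and 1185 in Bala controls. Each arsenate array was above every control array of its variety, and rcs3 passed only in the mean (limma adjusted p = 0.0162, against 0.126 in Azucena and 0.0652 in Bala). SAM2, which makes the methyl donor S-adenosylmethionine from methionine, had signals of 2529, 2785 and 2489.5 with arsenate against 1918, 2329 and 1684 in Azucena controls, and 3826, 3699 and 3961 with arsenate against 2612, 2882 and 2079 in Bala controls, and groups of a variety did not overlap. SAM2 changed by 0.51 ± 0.12 and passed only in the mean. The count of 5 was unchanged in each fit without 1 array and was 3 without the filter and 3, 2 and 4 without experiments 1, 2 and 3.

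Of 6 genes of silicon, arsenite and arsenate handling, 3 fell (50%, against 14.4% of all genes), 1 rose (16.7%, against 19.9%) and 2 did not pass. The one that rose was OsNIP1;1, a channel of the family that carries arsenite, at 1.14 ± 0.36 with 1 sign in 5 of 6 pairs. Of the 3 that fell, Lsi2, an exporter of silicic acid and arsenite, changed by -3.01 ± 0.31. OsNIP2;1 (Lsi1), the matching influx channel, changed by -1.35 ± 0.26. Of 23 phosphate genes 4 rose (17.4%) and 8 fell (34.8%), the lowest being OsPT2, a phosphate transporter, at -4.15 ± 0.30. Also among the phosphate genes that fell were OsSPX1, OsSPX2, OsSPX3 and OsSPX5, with changes from -1.75 to -0.74. These are phosphate sensor proteins that restrain the starvation response. OsPHR, named for the phosphate starvation regulators, had signals of 105, 124 and 149 with arsenate against 88.6, 118 and 81.6 in Azucena controls, and 128, 103 and 140.3 with arsenate against 55.1, 86 and 81.8 in Bala controls. The groups did not overlap in Bala, while in Azucena the arsenate value of experiment 1 (105) lay below the control value of experiment 2 (118). It changed by 0.56 ± 0.16 and passed only in the mean (limma adjusted p = 0.0281), on a probe set that can match several transcripts. Of 21 aquaporins, 1 rose (4.76%) and 9 fell (42.9%), with a median change of -0.30, and the 9 became 2 without experiment 1. OsNIP1;1, OsNIP2;1 and OsNIP2;2 were counted both as aquaporins and among the silicon, arsenite and arsenate genes. Without experiments 1, 2 and 3 the phosphate genes that fell numbered 5, 5 and 9.

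Of 17 nitrogen genes, 8 fell (47.1%, against 14.4% of all genes), OsGS1;3 rose and 8 did not pass, with a median change of -0.77. The nitrate transporter genes OsNRT2.2 and OsNRT2.3 changed by -2.66 ± 0.60 and -1.67 ± 0.31, and the ammonium transporter OsAMT1;2 by -2.52 ± 0.35. OsGS1;2, another cytosolic glutamine synthetase, changed by -1.28 ± 0.20, opposite in sign to OsGS1;3. Without experiments 1, 2 and 3 the number of lower members was 3, 5 and 9.

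Of 11 iron acquisition genes 8 rose (72.7%, against 19.9% of all genes) and 1 fell (9.09%, against 14.4%). Of 36 other metal transporters 9 were higher (25%) and 11 lower (30.6%), or 5 and 6 without experiment 1. OsNramp1, a transporter of divalent metals, changed by 5.65 ± 0.54, OsIRO2, a regulator of iron uptake, by 3.82 ± 0.31, and OsNAAT1, of the synthesis of iron-binding phytosiderophores, by 3.66 ± 0.45. OsNramp5, the main manganese and cadmium uptake carrier of rice roots, changed by -3.10 ± 0.15 and OsZIP7 by -1.79 ± 0.18. OsZIP8, of the ZIP family, passed only in the mean with 1.31 ± 0.34, and had signals of 12.1, 22.2 and 26.4 with arsenate against 8.9, 1.9 and 7.3 in Azucena controls, and 16, 23.5 and 35.8 with arsenate against 5.6, 19.2 and 8.9 in Bala controls. The groups overlapped in Bala, and without Bala control array 1 the adjusted p was 0.0515. OsMTP1, of a family that moves zinc into vacuoles, and MRS2-F, of a family of magnesium channels, changed by -0.44 ± 0.13 and 0.32 ± 0.11 and also passed only in the mean.

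A root potassium channel and a kinase that activates it were both lower. CBL proteins sense calcium and act through CIPK kinases, and in rice OsCIPK23 activates OsAKT1, an inward potassium channel of the root. OsAKT1 had signals of 75.6, 79.2 and 94.3 with arsenate against 286, 363 and 442 in Azucena controls, and 223, 229 and 151 with arsenate against 644, 445 and 801 in Bala controls. The groups did not overlap, and the change was -1.85 ± 0.20 (limma adjusted p = 0.000294). OsCIPK23 had signals of 961, 1503 and 1791 with arsenate against 3168, 3124 and 1964 in Azucena controls, and 1733, 2436 and 1162 with arsenate against 4143, 4644 and 2004 in Bala controls. In Azucena all arsenate arrays lay below all controls, and in Bala the arsenate array of experiment 2 (2436) lay above the control array of experiment 3 (2004). The change of OsCIPK23 was -0.98 ± 0.24, called only in the mean (limma adjusted p = 0.015). Of 28 CBL and CIPK genes, 10 fell (35.7%, against 14.4% of all genes) and 2 rose (7.14%, against 19.9%), with a median of -0.16. Of those that fell, 4 (OsPK7, OsCIPK23, OsCIPK08 and CBL6) were called only in the mean, against 410 of the 2247 lower genes overall tested. OsCK1 and OsCIPK01, which passed in both varieties, changed by -2.60 ± 0.20 and -1.26 ± 0.18. The 10 became 8 to 10 without 1 array and 4, 4 and 7 without experiments 1, 2 and 3. Of 23 potassium transport genes 7 fell (30.4%) and 2 rose (8.70%). OsHAK1, a high-affinity potassium carrier, changed by -1.73 ± 0.24 and OsHAK16 of the same family by 4.10 ± 0.46.

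Sugar genes moved in both directions. Of 14 SWEET, sucrose and hexose transporters, 5 fell (35.7%, against 14.4% of all genes) and 4 rose (28.6%, against 19.9%). The numbers were 2 and 2 without experiment 1, 2 and 3 without experiment 2, and 3 to 5 lower without 1 array. OsSWEET2a (-2.48 ± 0.22), OsSWEET4 (-1.33 ± 0.13), OsSWEET2b and OsSWEET6a (-1.17 ± 0.30) fell in all 6 pairs. OsSWEET2a, which passed in each variety, had signals of 181, 180.1 and 262 with arsenate against 1239, 1394 and 1046 in Azucena controls, and 189, 287 and 159 with arsenate against 1198, 801 and 1365 in Bala controls. The arsenate arrays did not overlap with the controls in either variety. OsSUT1, which loads sucrose across membranes, rose by 1.66 ± 0.35. Among 17 sucrose synthases, sucrose phosphate synthases and invertases, 7 rose (41.2%) and 5 fell (29.4%), and 6 of the 12 were called only in the mean with 1 sign. Over all genes this class held 1192 of the 5363 called. OsSUS2 and OsSUS1, sucrose synthases that split sucrose, changed by -0.48 ± 0.12 and -0.44 ± 0.13. The signals of OsSUS2 were signals of 2842, 3029 and 3689.8 with arsenate against 4410.1, 4352 and 4516 in Azucena controls, and 3226, 2712 and 3893 with arsenate against 4170.5, 4497 and 4815 in Bala controls, with no overlap in either variety. OsCIN1, a cell wall invertase, had signals of 468, 448 and 616 with arsenate against 242, 339 and 231 in Azucena controls, and 434, 474 and 276 with arsenate against 294, 204 and 82.4 in Bala controls. Its groups did not overlap in Azucena, while in Bala the arsenate value of experiment 3 (276) lay below the control value of experiment 1 (294), and its change was 1.04 ± 0.27, with an adjusted p of 0.0517 without Azucena control array 1. Without experiment 1 or 2, 0 of the 17 rose and 0 fell by limma's test, and without the filter 3 rose and 1 fell.

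**Figure D4:**
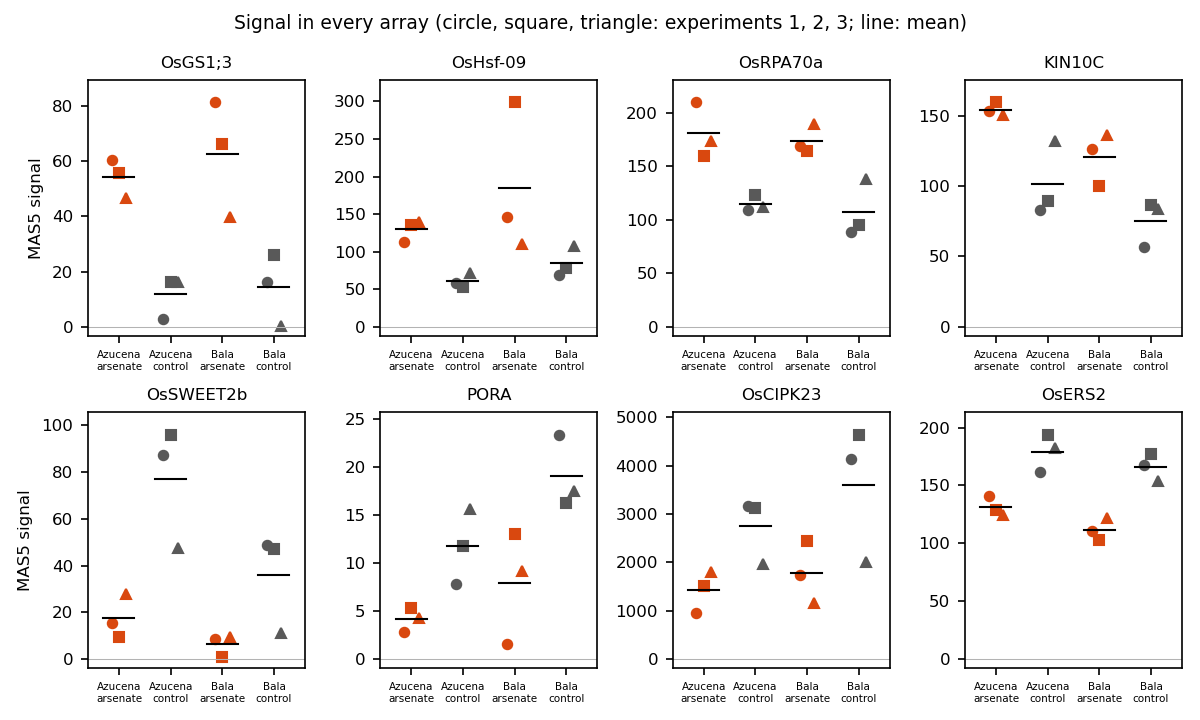
MAS5 signal (y axis, linear) in each array for 8 genes called only in the mean, with Azucena arsenate, Azucena control, Bala arsenate and Bala control from left to right. Symbols mark experiments 1, 2 and 3 and lines the group means. OsGS1;3, OsHsf-09, OsRPA70a and KIN10C read higher with arsenate and OsSWEET2b, PORA, OsCIPK23 and OsERS2 lower, with mean changes of 2.38, 1.03, 0.68, 0.65, -2.11, -1.21, -0.98 and -0.50.

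Kinesins, motor proteins that carry cargo and build the spindle and cell plate along microtubules, numbered 34. Of these, 14 rose and 0 fell (41.2% against 19.9% of all genes). The median change was 0.44, and 31 of the 34 fitted changes were above 0, against 9142 of the 15638 genes tested. KIN12E had signals of 164, 149.5 and 142 with arsenate against 40.7, 40.3 and 93.2 in Azucena controls, and 109, 99.5 and 119 with arsenate against 35.8, 32 and 76.8 in Bala controls. Groups of a variety did not overlap, and KIN12E changed by 1.35 ± 0.21 and passed in both varieties. So did KIN14I (1.22 ± 0.20), KIN14A (1.08 ± 0.19) and K23 (0.82 ± 0.15). KIN10C passed only in the mean and had signals of 153, 159 and 150.3 with arsenate against 82.8, 89.1 and 132 in Azucena controls, and 127, 99.7 and 136 with arsenate against 56.3, 86.3 and 83.6 in Bala controls. Its arsenate and control arrays did not overlap in either variety, and its change was 0.65 ± 0.15 (limma adjusted p = 0.0132, against 0.0736 in Azucena and 0.0794 in Bala). KIN14E (0.76 ± 0.19), KIN12C (0.54 ± 0.17) and KIN14L (0.48 ± 0.14) belonged to the same class. The count of 14 became 8 to 16 without 1 array, 10 after median centring, 5 without the filter, and 2, 2 and 9 without experiments 1, 2 and 3.

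Of 30 DNA replication genes, 7 rose (23.3%, near the 19.9% of all genes) and 0 fell, with a median change of 0.34 against 0.11 for all genes. OsRPA70a, the large subunit of the protein that coats single-stranded DNA, had signals of 209.6, 159.8 and 174 with arsenate against 109, 124 and 112 in Azucena controls, and 169, 164 and 189 with arsenate against 88.5, 95.4 and 138 in Bala controls. Groups did not overlap within a variety, and the change was 0.68 ± 0.14, called only in the mean (limma adjusted p = 0.00803). Its paralogue OsRPA70c changed by 0.78 ± 0.15, and OspolD1, a DNA polymerase delta subunit, by 0.75 ± 0.16. OsPCNA, the sliding clamp of the replication fork, had signals of 1028, 818 and 780.4 with arsenate against 628, 699 and 646 in Azucena controls, and 755, 603 and 823 with arsenate against 533, 555 and 409 in Bala controls. No arsenate array of a variety overlapped with its controls, and OsPCNA (0.47 ± 0.14) passed only in the mean. OsRFC3, a subunit of the clamp loader, changed by 0.42 ± 0.11. The 7 became 4 to 9 without 1 array, 4 after median centring, 3 without the filter and 0, 1 and 4 without experiments 1, 2 and 3. Of 41 cyclins, cyclin-dependent kinases and inhibitors, 2 rose (4.88%) and 7 fell (17.1%, against 14.4% of all genes), with a median of -0.01. Without 1 array 1 to 6 rose and 3 to 6 fell, and without experiments 1, 2 and 3 the numbers were 0, 0 and 3 higher and 1, 3 and 4 lower. CYCB1-3 and CYCA2-1, mitotic cyclins by their class, were the 2 that rose, by 0.85 ± 0.18 and 0.57 ± 0.16. CYCD5-1, a D-type cyclin, fell by 0.77 on the log2 scale.

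CCCH zinc finger proteins, several of which are known in plants to bind RNA, numbered 45. Of these, 20 rose (44.4%, against 19.9% of all genes) and 2 fell, with a median change of 0.34. OsC3H10 had signals of 14.7, 59.3 and 182 with arsenate against 1.3, 1.1 and 1.9 in Azucena controls, and 153, 672 and 30.7 with arsenate against 1.1, 2.6 and 1 in Bala controls. All control arrays lay below the filter value, so the size of its change, 4.71 ± 0.71, depends on the added constant. OsC3H18, called only in the mean, had signals of 613, 476 and 399 with arsenate against 335, 338 and 325 in Azucena controls, and 499, 479 and 514 with arsenate against 303, 302 and 337 in Bala controls. The groups did not overlap within a variety, and OsC3H18 changed by 0.61 ± 0.13 (limma adjusted p = 0.00861). OsC3H60, OsC3H27, OsC3H44, OsC3H13, OsC3H65 and OsC3H5 were in the same class, with changes from 0.36 to 0.54. OsC3H60 had signals of 719, 1120.1 and 496 with arsenate against 562, 695 and 316 in Azucena controls, and 619, 1008 and 564 with arsenate against 427, 874 and 321 in Bala controls. The array of experiment 2 was the highest in every group, so that the groups overlapped. In each of the 6 pairs the arsenate array was the higher one. The 20 became 9 to 20 without 1 array, 13 after median centring, 5 without the filter, and 1, 3 and 11 without experiments 1, 2 and 3.

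Of 16 genes of small RNA pathways 7 rose (43.8%, against 19.9% of all genes) and 2 fell (12.5%, against 14.4%), with a median of 0.36. OsDRB1, a double-stranded RNA binding protein, had signals of 343, 309.5 and 283 with arsenate against 105, 128 and 134 in Azucena controls, and 215, 204 and 245 with arsenate against 69.4, 100.2 and 109 in Bala controls. No group of a variety overlapped with the other, and OsDRB1 changed by 1.30 ± 0.14. OsDCL2a, a Dicer-like nuclease, changed by 1.27 ± 0.19, and OsAGO4a, an argonaute of the RNA-directed DNA methylation pathway by its class, by 0.46 ± 0.15, the last only in the mean. OsAGO1a fell by 0.63 on the log2 scale. The 7 became 4 to 7 without 1 array and 3, 3 and 4 without experiments 1, 2 and 3.

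Of 9 ethylene genes 5 fell (55.6%, against 14.4% of all genes) and 2 rose (22.2%, against 19.9%). Of the 5 that fell, 3 were receptors, which hold the pathway off until they bind ethylene. OsETR2 changed by -1.06 ± 0.15, OsETR3 by -0.90 ± 0.14 and OsERS2 by -0.50 ± 0.12, the last only in the mean, while the receptor OsERS1 did not pass (0.07 ± 0.11, adjusted p = 0.649). OsERS2 had signals of 141, 129 and 125 with arsenate against 162, 194 and 182 in Azucena controls, and 111, 103 and 122 with arsenate against 168, 177 and 154 in Bala controls. The groups did not overlap in either variety (limma adjusted p = 0.0122), and its probe set can match several transcripts. OsEIN2, which passes the signal on, and OsEIL1a, a transcription factor of the pathway, changed by -0.53 ± 0.11 and -0.42 ± 0.12, while the related OsEIL1b changed by 2.22 ± 0.32. EFE, named for the ethylene-forming enzyme, changed by 1.44 ± 0.32. The 5 became 4 to 5 without 1 array, 2 without the filter and 2, 2 and 3 without experiments 1, 2 and 3.

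Of 34 jasmonate genes 7 rose and 7 fell (20.6% each, against 19.9% and 14.4% of all genes). Without experiment 3 the number lower was 13. OsOPR6, OsOPR1 and OsOPR4, oxophytodienoate reductase-like enzymes, changed by 5.94 ± 0.85, 4.34 ± 0.45 and 3.16 ± 0.47. OsOPR8 of the same family had signals of 68.7, 63 and 75.4 with arsenate against 33.8, 50.6 and 36 in Azucena controls, and 109.5, 103 and 109 with arsenate against 77.5, 83.8 and 46.3 in Bala controls. Groups did not overlap within a variety, and OsOPR8 (0.71 ± 0.17) passed only in the mean. AOS4 and LOX3, of the allene oxide synthase and lipoxygenase families, changed by -3.52 ± 0.45 and -3.03 ± 0.28.

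DAO, the dioxygenase that inactivates auxin by oxidation, had signals of 1174, 1327 and 676 with arsenate against 632, 459.9 and 581 in Azucena controls, and 1076, 1172 and 1437 with arsenate against 759, 688 and 539 in Bala controls. Within a variety there was no overlap, and DAO changed by 0.89 ± 0.19, called only in the mean (limma adjusted p = 0.00945). Of 15 genes of auxin transport, synthesis and conjugation 5 fell (33.3%, against 14.4% of all genes) and 2 rose (13.3%, against 19.9%). The GH3 family joins auxin or jasmonate to amino acids, and its members that fell were OsGH3-1 (-1.28 ± 0.22), OsGH3-6 (-0.86 ± 0.16) and OsGH3-2 (-1.02 ± 0.27), the last only in the mean. OsYUCCA1, of auxin synthesis, changed by -1.38 ± 0.28, and the efflux carriers OsPIN2 and OsPIN5 by 0.57 ± 0.17 and 1.31 ± 0.37, both only in the mean. Of 41 auxin response factors and Aux/IAA repressors 8 rose (19.5%, against 19.9% of all genes) and 5 fell (12.2%, against 14.4%). The numbers were 2 and 1 without experiment 1 and 3 and 2 without experiment 2. Among 27 cytokinin genes 2 rose (7.41%) and 6 fell (22.2%), and 3 fell without experiment 1. LOGL9 and LOG, whose family frees active cytokinin, rose by 2.64 ± 0.26 and 1.5 ± 0.21, while LOGL1 and LOGL7 changed by -0.95 ± 0.13 and -0.73 ± 0.18, LOGL7 with 1 sign in 5 of 6 pairs. Also lower were the cytokinin oxidases OsCKX11 and OsCKX3, at -1.5 ± 0.28 and -0.92 ± 0.13. SLRL1, a relative of the gibberellin repressor SLENDER RICE1, had signals of 18.4, 24.2 and 14.1 with arsenate against 25, 34.1 and 34.6 in Azucena controls, and 19.9, 15.4 and 16.1 with arsenate against 28.5, 29.9 and 33 in Bala controls. Its groups did not overlap within a variety, and its change was -0.72 ± 0.16, called only in the mean.

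Some type 2C protein phosphatases hold back SnRK2 kinases in abscisic acid signalling. The family as a whole moved in both directions at shares near those of all genes, and members of that pathway were not counted apart. Of 53 measured, 9 rose (17.0%, against 19.9% of all genes) and 9 fell (17.0%, against 14.4%), or 3 and 2 without experiment 2. OsPP2C59 (2.61 ± 0.40) and OsPP2C16 (2.03 ± 0.25) rose the most of the called members. OsPP2C11 had signals of 99.6, 99.3 and 152 with arsenate against 174, 141 and 247 in Azucena controls, and 109, 109 and 197 with arsenate against 154, 152 and 405 in Bala controls. Signals of experiment 3 were higher in all 4 groups and the groups overlapped across experiments, but the arsenate array was the lower one in each pair. OsPP2C11 changed by -0.66 ± 0.15 and passed only in the mean (limma adjusted p = 0.00959), and its call was lost when the experiment was not a block. OsSAPK2, a SnRK2 kinase, changed by -0.45 ± 0.13, also only in the mean. Of 6 dehydrins and LEA proteins, hydrophilic proteins known from drying seeds, 5 rose (83.3%), led by RAB21 at 7.32 ± 0.41. OsDhn1 fell by 0.89 on the log2 scale.

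CASP-like membrane proteins, relatives of the proteins that lay down the Casparian strip, numbered 22. Of these, 8 fell (36.4%, against 14.4% of all genes) and 1 rose (4.55%, against 19.9%), with a median of -0.42. OsCASPL1C1 changed by -3.57 ± 0.49, OsCASPL3A1 by -0.88 ± 0.15 and OsCASPL4B2, only in the mean, by -0.45 ± 0.13. OsCASP1 changed by -1.13 ± 0.23, with 1 sign in 5 of 6 pairs. Of 24 expansins, which loosen growing walls, 5 fell (20.8%) and 2 rose (8.33%), or 1 and 1 without experiment 1 or 2. OsEXPB7 (-0.89 ± 0.23) and OsEXLA2 (-1.20 ± 0.34) were called only in the mean. Of 37 cellulose synthases and relatives 6 fell and 1 rose (16.2% lower, against 14.4% of all genes), of which OsCslF7 (-0.97 ± 0.27) had 1 sign in all pairs and was called only in the mean, and the 6 became 0 to 10 without 1 array, 1 without the filter and 0 without experiment 1 or 2. XAT2, a xylan arabinosyltransferase, rose by 0.74 ± 0.17 and was called only in the mean. Of 25 laccases and lignin synthesis genes 5 fell (20%, against 14.4% of all genes) and 3 rose (12%, against 19.9%). Without experiment 1 the number lower was 2, and without experiment 3 it was 8. Among the members, 4CLL7, a 4-coumarate-CoA ligase-like gene, changed by -3.41 ± 0.21. The laccases LAC19 and LAC24 changed by 5.49 ± 0.34 and 4.66 ± 0.31. Over the alternatives run the change of LAC19 lay between 3.95 and 6.53. Of 22 beta-glucosidases 9 fell (40.9%) and 4 rose (18.2%), from BGLU30 at -3.30 to BGLU22 at 2.83. The 8 CASP-like genes became 7 to 9 without 1 array and 4, 3 and 8 without experiments 1, 2 and 3.

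Of 25 homeodomain-leucine zipper factors 7 fell (28%, against 14.4% of all genes) and 0 rose, although the median change was 0.01. OsHox14 had signals of 39.7, 45.5 and 11.1 with arsenate against 198, 122 and 204 in Azucena controls, and 24.1, 28.6 and 21.6 with arsenate against 166, 167 and 172 in Bala controls. No overlap was seen, and it changed by -2.60 ± 0.30. OsHox13 and OsHox16 (-0.65 ± 0.18 and -0.37 ± 0.12) were called only in the mean. The 7 became 3 to 6 without 1 array, 3 without the filter and 2, 2 and 5 without experiments 1, 2 and 3. Among other regulators called only in the mean, OsHAP3F, a subunit of the NF-Y transcription factor, changed by -0.97 ± 0.24, OsSOC1, of the MADS family, by -0.64 ± 0.16, and the WNK kinase OsWNK6 by -0.82 ± 0.20. GRXS2, a glutaredoxin on a probe set that can match several transcripts, had signals of 448, 682 and 585 with arsenate against 1289, 1177 and 619 in Azucena controls, and 676, 583 and 661 with arsenate against 1336, 1085 and 1026 in Bala controls. The groups did not overlap in Bala, and in Azucena the arsenate value of experiment 2 (682) lay above the control value of experiment 3 (619). GRXS2 changed by -0.82 ± 0.20, against 3.25 ± 0.16 for GRXS3 of the same family, which passed in both varieties.

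**Figure D5:**
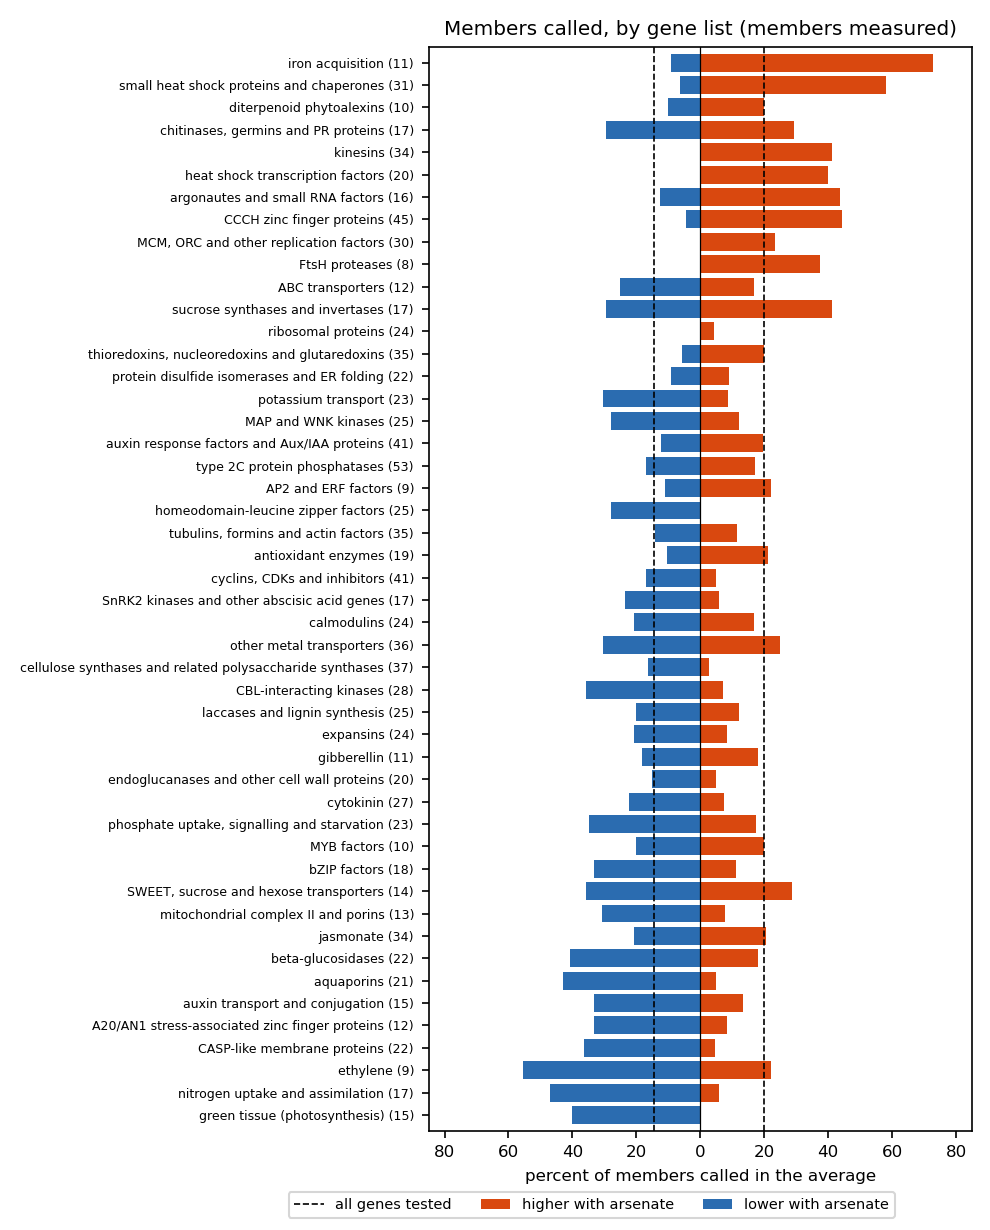
Percent of the measured members of each gene list (rows, number measured in brackets) that passed in the mean, to the right for higher (orange) and to the left for lower (blue) with arsenate. The dashed lines mark all genes tested, 19.9% higher and 14.4% lower, and iron acquisition reaches 72.7% higher and nitrogen uptake and assimilation 47.1% lower.

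The remaining named genes of the class called only in the mean were GYRA, a DNA gyrase subunit (0.89 ± 0.21), OsTLP11 (0.84 ± 0.18), CSB (0.72 ± 0.16), CTU1, of tRNA thiolation (0.68 ± 0.15), OsCSTLP2 (0.62 ± 0.15) and QM1 (0.51 ± 0.12), which rose. The genes CML30, a calmodulin-like protein (-0.75 ± 0.18), OsPUB24, a U-box ubiquitin ligase (-0.75 ± 0.18), BGLU32 (-0.67 ± 0.16) and OsMUB3 (-0.55 ± 0.12) fell. CSB had signals of 213, 200.2 and 195 with arsenate against 132, 109 and 133 in Azucena controls, and 223, 170.3 and 203 with arsenate against 90.6, 107 and 169 in Bala controls, with no overlap in either variety. Among loci with no other name, LOC4337287 (0.82 ± 0.18), LOC4340224 (0.69 ± 0.15) and LOC4339673 (0.54 ± 0.11) rose and LOC4347919 (-1.49 ± 0.31), LOC4341509 (-1.01 ± 0.21) and LOC4337540 (-0.66 ± 0.14) fell. LOC4347919, on a probe set that can match several transcripts, had signals of 175, 330.2 and 374 with arsenate against 968, 886 and 483 in Azucena controls, and 310.2, 302 and 152 with arsenate against 1115, 1022 and 328 in Bala controls. Groups did not overlap in Azucena or in Bala, and its experiment 3 differences were the smallest.

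Photosynthesis genes, which mark green tissue, were lower where they were called. Of 15 measured, 6 fell (40%, against 14.4% of all genes) and 0 rose, with a median of -1.09. PORA, a chlorophyll synthesis enzyme called only in the mean, had signals of 2.8, 5.3 and 4.3 with arsenate against 7.8, 11.8 and 15.6 in Azucena controls, and 1.6, 13 and 9.2 with arsenate against 23.4, 16.3 and 17.5 in Bala controls. Its groups did not overlap within a variety, most of its signals lay near or below the filter value, and it changed by -1.21 ± 0.28 (limma adjusted p = 0.0125). OsGLK1, a regulator of chloroplast genes, changed by -2.83 ± 0.40, and the antenna protein gene CAB2R by -2.15 ± 0.71. The summed signal of the 15 was 496 to 721 with arsenate in Azucena, against 835 to 3096 without it. In Bala it was 782 to 4483 with arsenate, against 1655 to 4948 without it. Group means below the filter value were seen for 5 of 15 in Azucena with arsenate and 3 in Bala with arsenate, against 0 in Azucena controls and 1 in Bala controls. The 15 were taken only from genes whose mean over all arrays passed this filter. A dim gene could thus enter only through its higher groups, so these counts were partly set beforehand. The summed signal of the 7 root markers was 5909 to 7032 with arsenate against 11566 to 17481 without in Azucena, and 5578 to 7501 with arsenate against 12828 to 21528 without in Bala, and 5 of the 7 fell and 1 rose. The part of tissue make-up in the other changes was not tested.

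Of the ratios used to judge RNA quality, that of GAPDH was higher with arsenate in both varieties. Without arsenate it was also higher in Azucena than in Bala. The ratio of the 3 prime to the 5 prime GAPDH control probe set, which is larger when RNA is shorter, was 8.86 to 23.8 with arsenate against 7.58 to 8.60 without in Azucena, and 3.53 to 3.78 with arsenate against 1.43 to 2.17 without in Bala. For actin the ratio was 5.15 to 8.45 with arsenate against 2.24 to 6.87 without in Azucena, where groups overlapped. In Bala it was 6.82 to 8.59 with arsenate against 2.54 to 3.66 without. For cyclophilin it was 2.46 to 3.23 with arsenate against 2.08 to 2.54 without in Azucena, and 2.08 to 2.90 with arsenate against 1.88 to 2.44 without in Bala, so that groups overlapped. By pairs, the cyclophilin ratio was higher with arsenate in all but experiment 2 of Bala (2.08 against 2.16). The part of RNA quality in the changes was not tested. Without Azucena arsenate array 2, which had the GAPDH ratio of 23.8, 561 of the 1192 genes passed.

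A mean over varieties can also hide genes that differ between them. Of the 5363 genes called, 73 had fitted changes of opposite sign in Azucena and Bala, and 8 also passed the test of the difference, as did 3 genes not called in the mean. OsSWEET1b changed by 5.35 in Bala and 0.09 in Azucena, with a mean of 2.72 ± 0.12 and 1 sign in 5 of 6 pairs. OsSWEET12 changed by 1.07 in Bala and 7.17 in Azucena. No gene called only in the mean passed the test of the difference, a test in which 11 genes passed at all.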

How the data were processed

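RNA from roots of the rice varieties Azucena and Bala was hybridised to 12 Affymetrix Rice Genome arrays, 3 for each of 4 groups. The deposited values are signal intensities on a linear scale, made by the authors with MAS5 per the submitters' processing notes, where no version is given. The scaling of the arrays is not given in the sources used here.

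Intensities were taken as log2(signal + 2.1), 2.1 being the 25th percentile of all signals, without further normalization. Of 57258 probe sets, after 123 control probe sets were set aside, 28461 with a mean signal over 9.4 (the median of all signals) were tested with limma 3.58.1 in R 4.3.3. Group means of all 4 groups and a block term for the experiment made up the model, with 6 residual and 2.85 prior degrees of freedom, and the mean arsenate effect was a contrast of both varieties. The threshold was an adjusted p of 0.05, by the Benjamini-Hochberg procedure across every tested probe set. The fit was checked on simulated data without an experiment effect. Of 100 probe sets given a log2 change of 1 in both varieties, 45 passed in the mean, 22 in Azucena and 19 in Bala. With a change of 2 these numbers were 91, 71 and 65, and 12 unchanged probe sets passed in the mean. Smaller changes, such as the median of the class called only in the mean, were not simulated. The precision is limited by the 3 arrays per group.

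Gene names came from the platform annotation, in which 22436 probe sets have 1 gene, 95 several and 34727 none. A gene was represented by its probe set with the highest mean signal, giving 15638 genes, 2166 with a symbol beyond the locus number. Of 272 genes picked by the naming rule, 56 were read by probes shared between transcripts. The rule named the 10 largest rises and falls, the 15 named rises and falls and the 3 unnamed ones of each direction with the smallest p among genes called only in the mean, up to 4 members per list with the smallest p, and 8 single genes. The 60 gene lists were written as symbol patterns, restated once the annotation was seen, and genes of other kinds that matched a pattern through an older synonym were taken out after values were seen. A gene could belong to more than 1 list. Members and lists were chosen with earlier results of these data known.

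The experiment was a block because the series' design text says that the 4 conditions of a replicate were harvested together and that replicates were grown separately. Deviations from group means correlated with a median r of 0.131 over 18 pairs of arrays with the same number and -0.0359 over 36 other pairs. Alternatives covered the block, the added constant, the filter, normalization, variance trend, an additive model, 1 difference per experiment, and leaving out arrays or experiments. Counts over genes and list members without each array or experiment were added after seeing the data.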

Additional observations from a re-analysis of the deposited data

Results flagged for a closer look

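Genes whose arsenate effect differed between the varieties by limma's test of the difference were noted, since a mean over varieties describes them poorly. The change in Bala minus that in Azucena was -6.10 on the log2 scale for OsSWEET12 and -5.98 for CYP99A2, a cytochrome P450 of diterpenoid synthesis. It was 5.26 for OsSWEET1b. No explanation was tested.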

How the results depend on the processing

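Over probe sets, 9033 passed in the mean of both varieties, 6929 of them with 1 sign in all 6 pairs and 1915 of these only in the mean, and 26 passed the test of the variety difference. Without the replicate block the 4 counts were 8478, 6534, 1863 and 58. Without the filter 5966 passed in the mean and 5 in the difference, and with the filter at the 70th percentile 1097 passed only in the mean and 56 in the difference. With 1 difference per experiment the first 3 counts were 5541, 4570 and 466. The variety difference gave 17 with the added constant at the 5th percentile, 138 at the 50th, 71 after median centring, 64 with a variance trend and 77 with a robust trend. Leaving out 1 array or experiment gave 3216 to 9407 in the mean, 3043 to 7346 with 1 sign, 1652 to 2621 only in the mean and 0 to 97 in the difference. In these fits 1 sign was asked only of the pairs that remained, a looser rule than 1 sign in all 6 pairs. Higher probe sets were 54.2% of calls, against 50.2% after quantile normalization and 48.8% after median centring. The cause was not tested. After median centring the median over probe sets was 0.19 in Azucena, against 0.10 before it, and -0.10 in Bala, against 0.06, a change of sign. Genes with signals near the filter value are measured less precisely.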

Other observations

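Ribosomal protein genes had 1 higher (4.17%, against 19.9% of all genes) and 0 lower of 24. Of the 24 fitted changes, 23 were above 0, against 9142 of the 15638 genes tested. Their median was 0.22, against 0.11 for all genes. FtsH proteases, which degrade membrane proteins of organelles, had 3 higher (37.5%, against 19.9% of all genes) and 0 lower of 8, with a median of 0.33. Stress-associated zinc finger proteins with A20 and AN1 domains had 1 higher and 4 lower (33.3%, against 14.4% of all genes) of 12, with a median of -0.35. Thioredoxins, nucleoredoxins and glutaredoxins had 7 higher (20%, against 19.9% of all genes) and 2 lower (5.71%, against 14.4%) of 35.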
